A study of Mus musculus with 12 samples.

Results

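The mouse Toll-like receptors measured here, with the proteins that help the cell sense lipopolysaccharide (LPS), comprise 10 genes: Tlr1, Tlr2, Tlr3, Tlr4, Tlr6, Tlr7, Tlr9, Cd180, Ly86 and Ly96. They were chosen by symbol, and every probe set annotated to a member was kept, giving 16 of the 45037 probe sets tested and 10 of the 18193 genes with a probe set of their own. Tlr4 had 4 probe sets, Tlr7 had 3, Tlr3 had 2 and each other member had 1. The RNA was that of spleen B cells, taken from wild type or EFLmDREAM transgenic mice and read on Affymetrix mouse genome arrays. DREAM, the protein of Kcnip3, is a calcium-binding repressor that binds DNA. The 4 groups, with 3 independent biological replicates each, were wild type unstimulated (day 0), transgenic unstimulated (day 0), and both genotypes after 2 days of culture with LPS at 20 µg/ml and interleukin 4 (IL-4) at 10 ng/ml. All groups shared the isolation, a depletion of CD43-bearing cells to a stated purity above 98%. Mouse strain, age, sex, the promoter that drives the transgene and any pooling of animals are not given in the sources used here.

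Toll-like receptors are membrane proteins that recognize conserved microbial molecules and pass the signal through adaptors, mainly MyD88, to NF-kB and interferon regulatory factors. TLR1 and TLR6 each pair with TLR2 at the cell surface to sense lipopeptides. TLR4 senses LPS together with MD-2, the product of Ly96. CD180 (RP105) and its partner MD-1, the product of Ly86, form a related pair that is abundant on B cells and tunes their LPS response. TLR3, TLR7 and TLR9 sense nucleic acids in endosomes. B cells carry several of these receptors and can be driven to divide and secrete antibody by LPS without T cell help.

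Tlr1 and Tlr6 lie next to each other on chromosome 5 and are transcribed from the same strand. In the RefSeq table of GRCm38.p6, Tlr1 spans chr5:64924680-64933600 and Tlr6 spans chr5:64953092-64970942. These neighbours differed between genotypes in opposite directions. For that reason the 250 bases before annotated starts of each are shown, with those of Tlr2, the partner of both receptors. Both Tlr6 windows and the second Tlr1 window lie inside the gene spans above, and no window at the outer Tlr6 end, 64970942, is shown. The first Tlr1 window and the Tlr2 window cross the end of their gene's span. Capitals mark GTCA, the core of the DREAM binding site known as DRE, on either strand, where the other strand reads TGAC. Each sequence is on the minus strand of GRCm38.p6 and is written 5′ to 3′ in the direction of transcription.
Tlr1, chr5:64933559-64933808: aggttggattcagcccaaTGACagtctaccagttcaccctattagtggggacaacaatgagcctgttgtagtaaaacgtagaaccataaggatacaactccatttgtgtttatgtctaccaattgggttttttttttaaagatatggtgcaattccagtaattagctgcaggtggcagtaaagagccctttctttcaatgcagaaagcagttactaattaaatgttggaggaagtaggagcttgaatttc
Tlr1, second annotated start, chr5:64932700-64932949: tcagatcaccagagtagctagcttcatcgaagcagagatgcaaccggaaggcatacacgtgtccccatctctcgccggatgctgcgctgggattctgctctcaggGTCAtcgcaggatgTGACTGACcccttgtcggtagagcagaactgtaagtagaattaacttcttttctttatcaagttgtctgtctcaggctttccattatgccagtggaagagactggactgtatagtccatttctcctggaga
Tlr6, chr5:64959167-64959416: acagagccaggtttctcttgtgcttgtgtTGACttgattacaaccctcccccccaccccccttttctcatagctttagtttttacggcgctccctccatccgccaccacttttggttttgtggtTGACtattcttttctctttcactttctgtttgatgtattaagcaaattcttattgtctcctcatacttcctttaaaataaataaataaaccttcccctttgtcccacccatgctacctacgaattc
Tlr6, second annotated start, chr5:64960049-64960298: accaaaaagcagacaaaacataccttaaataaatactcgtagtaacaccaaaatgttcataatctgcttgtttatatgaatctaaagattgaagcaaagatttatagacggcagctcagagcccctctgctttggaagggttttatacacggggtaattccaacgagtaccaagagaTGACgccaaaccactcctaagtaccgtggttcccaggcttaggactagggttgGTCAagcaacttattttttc
Tlr2, chr3:83841609-83841858: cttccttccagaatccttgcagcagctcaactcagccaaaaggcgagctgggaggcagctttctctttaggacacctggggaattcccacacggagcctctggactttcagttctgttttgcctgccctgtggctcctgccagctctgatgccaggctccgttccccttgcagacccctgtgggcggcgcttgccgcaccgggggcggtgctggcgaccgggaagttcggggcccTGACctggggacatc

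The Tlr1 windows held 1 and 3 GTCA cores, each Tlr6 window held 2 and the Tlr2 window held 1. This 4-base core was present in 80.2% of 32841 mouse promoter windows of the same length, so most windows hold it. An ETS core, GGAAGT, searched on both strands, was found once in the first Tlr1 window, once in the first Tlr6 window and once in the Tlr2 window, against 19.7% of all windows with at least 1 match. The NF-kB consensus matched in the Tlr2 window at 2 overlapping positions, which read the same stretch of bases, and not in the Tlr1 and Tlr6 windows. Of all windows, 7.25% held at least 1 match. A match is a description of letters only and was not tested as a binding site. Windows were found for 7 of the 10 members, without Tlr4, Tlr7 and Ly96.

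Values are log2 probe set levels as deposited, each from 1 array. Genotype differences are transgenic minus wild type on that scale, with n = 3 arrays per group, standard errors from limma, and p-values adjusted by Benjamini and Hochberg over all 45037 probe sets. An adjusted p under 0.05 was called. The stimulated arrays had lower medians (5.36 to 5.41) than the unstimulated ones (5.97 to 6.05), so stimulation changes and their interaction with genotype were taken from values quantile-normalized over the 12 arrays. The median change of all probe sets with stimulation was −0.40 in each genotype on the deposited scale. Quantile normalization brought it to 0.037 (wild type) and 0.040 (transgenic), and centring each array on its median brought it to 0.217 and 0.240. Directions below are therefore relative to the scaling named. In these bulk samples, fewer cells of a type and less RNA per cell cannot be told apart. Wild type day 0 replicate 1 had an actin 5′ minus 3′ signal of −2.22, against −0.67 to −0.54 in the other unstimulated arrays, a sign of lower RNA integrity. Wild type day 2 replicate 1 stood at −1.36, against −0.98 to −0.43 in the other stimulated arrays. Without that stimulated array the call of 1 member changed, the fall of Cd180 in wild type cells, along with pathway calls named below. Kcnip3 did not pass the test by genotype at either probe set: the brighter differed by 0.23 ± 0.12 in unstimulated cells (limma adjusted p = 0.279) and by 0.03 ± 0.12 in stimulated cells (adjusted p = 0.976). Without wild type day 0 replicate 3 the Kcnip3 difference in unstimulated cells was 0.39 (adjusted p = 0.025). Whether these probe sets read the transgene is not known here, so they do not check the genotype label.

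In unstimulated cells, 4 of the 16 member probe sets differed by genotype. Tlr1 was lower in transgenic cells, and Tlr2, Tlr6 and the brightest Tlr7 probe set were higher. Across all probe sets tested, 4.47% were higher and 4.98% lower in this comparison, so the 3 higher and 1 lower members can be read against those shares. The median difference of the members was 0.192, beside 0.007 over all probe sets. After stimulation only Tlr1 passed the test among the 16, against 1.86% of all probe sets called in either direction, while the members' median difference was 0.168. The median of all probe sets in that state was 0.007. Counted by gene at the brightest probe set, 3 members were higher and 1 lower before stimulation, against 5.45% and 4.90% of all genes. After stimulation 1 member gene was called, against 2.34% of genes. Without the unstimulated wild type array of low actin ratio, 6 of the 16 probe sets were called in unstimulated cells, 5 higher and 1 lower. The added ones were Ly96, at 0.70 (adjusted p = 0.0129), and the Tlr4 probe set 1418162_at, at 0.33 (adjusted p = 0.0434).

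**Figure D1:**
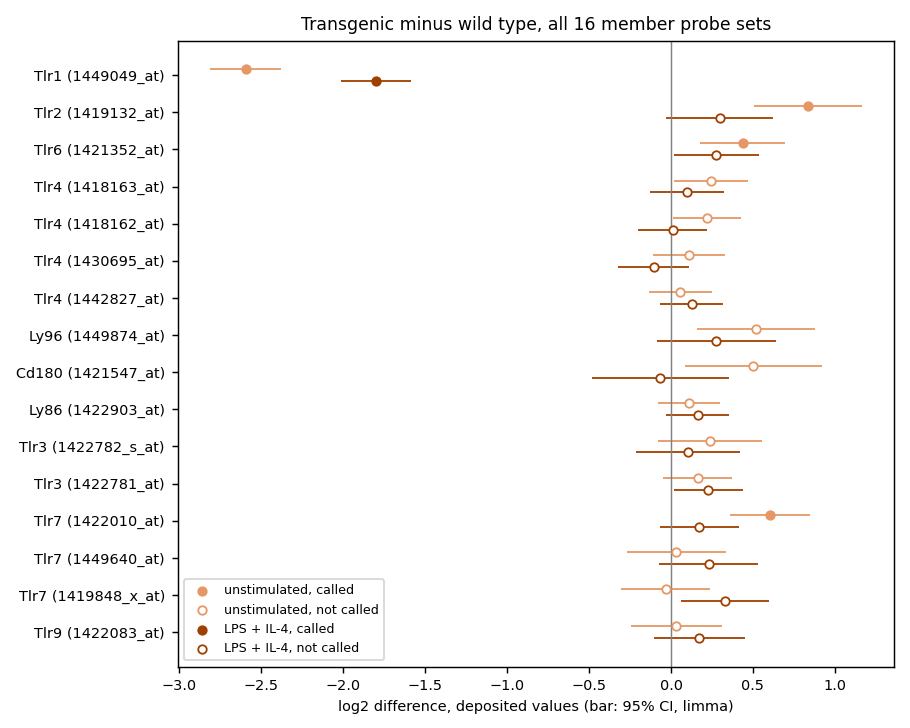
Transgenic minus wild type log2 difference (x axis) for each of the 16 member probe sets (y axis), unstimulated in light and stimulated in dark symbols; bars are 95% confidence intervals from limma with 3 arrays per group, and filled symbols passed an adjusted p of 0.05. Tlr1 stands at −2.60 and −1.80, far to the left of zero in both states, while Tlr2, Tlr6 and Tlr7 1422010_at are the filled symbols to the right, and only when unstimulated.

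Tlr1, which pairs with TLR2 to sense triacylated lipopeptides, showed the largest genotype difference of the members. Its levels were 9.66, 9.37 and 9.27 in unstimulated wild type arrays and 6.88, 6.84 and 6.79 in unstimulated transgenic arrays. After stimulation they were 7.72, 7.71 and 7.71 in wild type and 5.92, 6.04 and 5.78 in transgenic arrays. The 4 groups did not overlap, and unstimulated transgenic cells lay below even stimulated wild type cells. The difference was −2.60 ± 0.10 in unstimulated cells (6.05-fold lower, limma adjusted p = 7.23e-09) and −1.80 ± 0.10 in stimulated cells (3.48-fold lower, adjusted p = 3.52e-07). Without wild type day 0 replicate 1 the Tlr1 difference in unstimulated cells was −2.48. Tlr1 fell with stimulation by 1.56 ± 0.09 in wild type cells (adjusted p = 1.29e-08), and by 1.72 on the deposited scale and 1.10 with median centring. In transgenic cells it fell by 0.31 ± 0.09 (adjusted p = 0.0135), by 0.92 on the deposited scale and by 0.28 with median centring, and the call was lost without transgenic day 2 replicate 3 (−0.25, adjusted p = 0.0601). The change in transgenic minus the change in wild type cells was 1.26 ± 0.13 (adjusted p = 0.000465). This interaction was 0.80 on the deposited scale (adjusted p = 0.0136) and 0.82 with median centring (adjusted p = 0.0159). Among the 16 member probe sets it was the only one called for the interaction, against 1.79% of all probe sets and 2.30% of all genes.

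**Figure D2:**
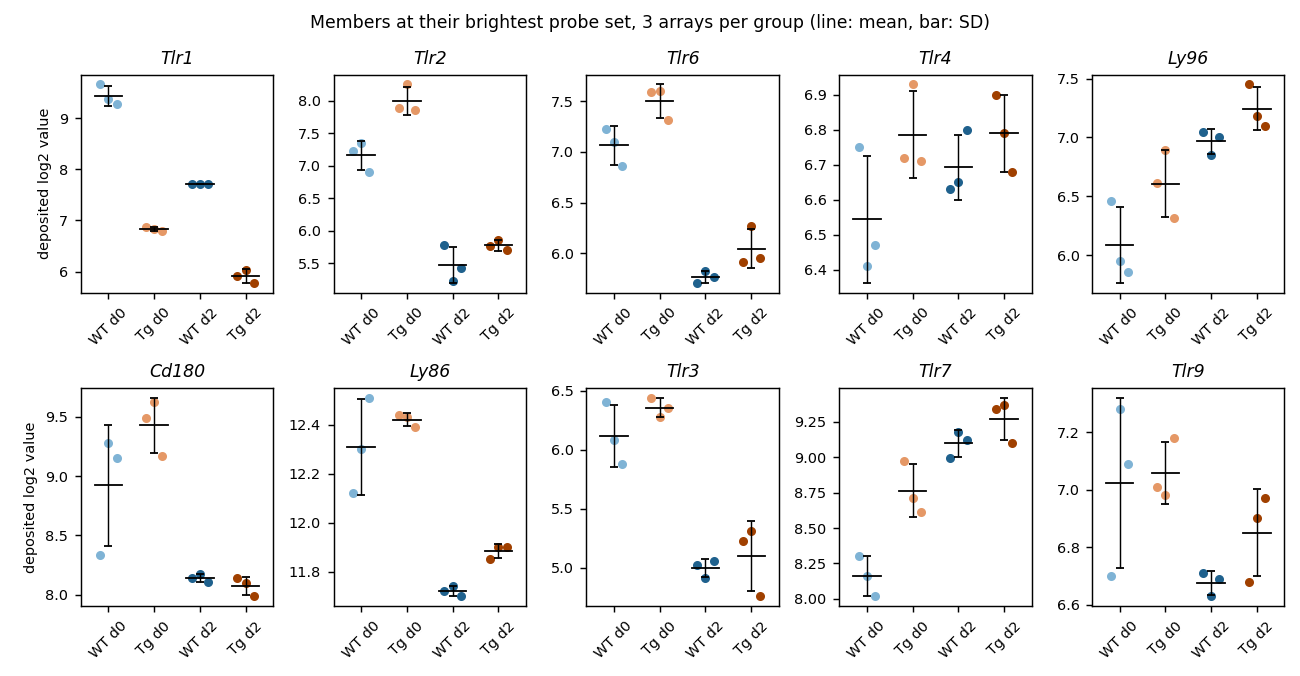
Deposited log2 level (y axis, its own range in each panel) on each of the 3 arrays per group for the 10 members at their brightest probe set; points are arrays, horizontal lines are means and bars are SD, with d0 unstimulated and d2 after 2 days of LPS and IL-4. In Tlr1 both transgenic groups lie below both wild type groups (at most 6.88 against at least 7.71), whereas Tlr2 and Tlr6 lie lower in both stimulated groups than in either unstimulated group.

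Tlr2, the shared partner of TLR1 and TLR6, was higher in unstimulated transgenic cells. Wild type arrays read 7.22, 7.35 and 6.91 and transgenic arrays 7.89, 8.25 and 7.85, with no overlap. This difference was 0.84 ± 0.15 (1.79-fold, limma adjusted p = 0.0042). After stimulation Tlr2 read 5.78, 5.23 and 5.43 in wild type and 5.77, 5.86 and 5.70 in transgenic arrays, which overlapped, and the difference was 0.30 ± 0.15 with a 95% interval of −0.031 to 0.624 (adjusted p = 0.52). Tlr2 fell with stimulation by 1.08 ± 0.16 in wild type (adjusted p = 5.69e-05) and by 1.76 ± 0.16 in transgenic cells (adjusted p = 6.08e-07). On the deposited scale it fell by 1.68 and 2.22. The interaction, −0.68 ± 0.22, did not pass the test (adjusted p = 0.17).

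Tlr6, which pairs with TLR2 to sense diacylated lipopeptides, followed the same order of groups as Tlr2. Unstimulated wild type arrays read 7.23, 7.10 and 6.86 and transgenic arrays 7.59, 7.60 and 7.31, again without overlap. The difference was 0.44 ± 0.12 (1.35-fold, limma adjusted p = 0.0389). That call was lost with each array centred on its median (0.39, adjusted p = 0.0664), in a fit of the 6 unstimulated arrays alone (adjusted p = 0.104), and without any of 6 single arrays, namely wild type day 0 replicates 2 and 3, transgenic day 0 replicates 1 and 2, and wild type day 2 replicates 2 and 3 (adjusted p up to 0.129). In stimulated cells Tlr6 read 5.71, 5.83 and 5.77 in wild type and 5.92, 6.27 and 5.95 in transgenic arrays. Again no transgenic array reached down to a wild type one, but the difference of 0.28 ± 0.12 did not pass the test (adjusted p = 0.40). Tlr6 fell with stimulation by 0.69 ± 0.12 in wild type (adjusted p = 0.000276) and by 0.90 ± 0.12 in transgenic cells (adjusted p = 2.94e-05), and by 1.29 and 1.45 on the deposited scale. Its neighbour Tlr1 thus stood lower, and Tlr6 higher, in the same unstimulated transgenic arrays.

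Tlr4, the signalling receptor for LPS, was not called by genotype in either state at any of its 4 probe sets. At its brightest, 1418163_at, the levels were 6.75, 6.41 and 6.47 in wild type and 6.72, 6.93 and 6.71 in transgenic unstimulated arrays. Stimulated arrays read 6.63, 6.65 and 6.80 in wild type and 6.90, 6.79 and 6.68 in transgenic cells. The groups overlapped, with a difference of 0.24 ± 0.10 before (95% interval 0.017 to 0.469, limma adjusted p = 0.17) and 0.10 ± 0.10 after stimulation (interval −0.129 to 0.323, adjusted p = 0.86). On quantile-normalized values Tlr4 rose with stimulation at 1418163_at by 0.71 ± 0.10 in wild type (adjusted p = 6.72e-05) and 0.60 ± 0.10 in transgenic cells (adjusted p = 0.000318), a rise not called on the deposited scale (0.15 and 0.0033, adjusted p = 0.199 and 0.978).

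The second Tlr4 probe set, 1418162_at, shares its source transcript with the first. It read 4.47 to 4.84 in unstimulated wild type, 4.80 to 4.95 in unstimulated transgenic, 5.25 to 5.44 in stimulated wild type and 5.31 to 5.39 in stimulated transgenic arrays. It rose by 1.27 ± 0.10 in wild type (adjusted p = 1.25e-07) and 1.09 ± 0.10 in transgenic cells (adjusted p = 5.93e-07), and by 0.72 and 0.51 on the deposited scale, both called there too. The other two Tlr4 probe sets, 1430695_at and 1442827_at, were dim, at means of 3.88 and 3.67, percentiles 10.3 and 6.66 of all probe sets, and neither was called in any of the 5 contrasts with the scalings used for them. Under other scalings their stimulation changes did pass, and 1430695_at changed sign in transgenic cells, from −0.36 on the deposited scale (adjusted p = 0.00545) to 0.28 with median centring (adjusted p = 0.0232).

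Ly96 encodes MD-2, the protein that binds LPS on TLR4. Its levels were 6.46, 5.95 and 5.86 in wild type and 6.61, 6.89 and 6.32 in transgenic unstimulated arrays, which overlapped. The difference of 0.52 ± 0.17 missed the threshold (limma adjusted p = 0.073), and without wild type day 0 replicate 1, the highest wild type value and the array of low actin ratio, it was 0.70 (adjusted p = 0.0129). Stimulated arrays read 7.05, 6.85 and 7.0 in wild type and 7.45, 7.18 and 7.10 in transgenic cells, with a difference of 0.28 ± 0.17 (adjusted p = 0.63). Ly96 rose with stimulation by 1.41 ± 0.17 in wild type (adjusted p = 1.21e-05) and 1.20 ± 0.17 in transgenic cells (adjusted p = 5.74e-05). On the deposited scale the rises were 0.88 and 0.64, also called, so Ly96 kept its direction under the 3 scalings.

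On quantile-normalized values the genes of the CD180 and MD-1 pair moved the other way, and with median centring Ly86 flipped. Cd180 read 8.34, 9.28 and 9.15 in unstimulated wild type arrays, 9.49, 9.62 and 9.17 in unstimulated transgenic arrays, 8.14, 8.18 and 8.11 in stimulated wild type arrays and 8.14, 8.10 and 7.99 in stimulated transgenic arrays. Wild type day 0 replicate 1 stood apart from the other unstimulated arrays of Cd180, and the genotype difference of 0.50 ± 0.19 was not called (limma adjusted p = 0.13) and was 0.21 without that array. In stimulated cells the difference was −0.07 ± 0.19 (adjusted p = 0.97). Cd180 fell in transgenic cells by 1.26 ± 0.22 (adjusted p = 0.000356), and by 1.35 on the deposited scale and 0.71 with median centring. In wild type cells it fell by 0.61 ± 0.22 (adjusted p = 0.0346), or by 0.96 without wild type day 0 replicate 1 (adjusted p = 6.96e-06). The wild type call was lost with median centring (−0.16, adjusted p = 0.46), in a fit of the 6 wild type arrays alone (adjusted p = 0.0928), and without wild type day 0 replicate 2 (−0.41) or 3 (−0.44) or any single wild type day 2 array (adjusted p 0.0645 to 0.0839). The interaction, −0.65 ± 0.32, was not called (adjusted p = 0.39).

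Ly86, encoding MD-1, read 12.12, 12.30 and 12.51 in wild type and 12.44, 12.43 and 12.39 in transgenic unstimulated arrays. After stimulation it read 11.72, 11.74 and 11.70 in wild type and 11.85, 11.90 and 11.90 in transgenic arrays. Genotype differences of 0.11 ± 0.09 and 0.16 ± 0.09 were not called (limma adjusted p = 0.50 and 0.56), although the stimulated genotypes did not overlap. On quantile-normalized values Ly86 fell with stimulation by 0.86 ± 0.08 in wild type (adjusted p = 8.68e-07) and 0.75 ± 0.08 in transgenic cells (adjusted p = 3.26e-06), and by 0.59 and 0.54 on the deposited scale, but with median centring the sign flipped, to 0.03 and 0.10 with no call. Its direction with stimulation therefore depends on the scaling.

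Among the endosomal receptors, Tlr7 differed by genotype at 1 of its 3 probe sets. TLR7 senses single-stranded RNA, and its gene is X-linked. At 1422010_at, Tlr7 read 8.30, 8.16 and 8.02 in wild type and 8.97, 8.71 and 8.61 in transgenic unstimulated arrays, with no overlap, a difference of 0.60 ± 0.11 (1.52-fold, limma adjusted p = 0.0051). Stimulated arrays read 8.99, 9.18 and 9.12 in wild type and 9.34, 9.37 and 9.10 in transgenic cells, which overlapped, and differed by 0.17 ± 0.11 (95% interval −0.070 to 0.417, adjusted p = 0.67). The probe set rose with stimulation by 1.10 ± 0.11 in wild type (adjusted p = 2.09e-06) and 0.55 ± 0.11 in transgenic cells (adjusted p = 0.00104), and by 0.94 and 0.51 on the deposited scale. With median centring the rises were 1.55 and 1.15. The interaction of −0.56 ± 0.16 did not pass (adjusted p = 0.11). For the X-linked Tlr7 the Y-linked gene Eif2s3y is given beside it: in each group replicate 3 alone was low, at 3.33 to 3.78 against 8.27 to 9.55, so the groups held the same balance of this marker.

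The other Tlr7 probe sets, 1449640_at and 1419848_x_at, come from 1 shared source sequence and went against the first. Tlr7 1449640_at read 6.81 to 7.48 in unstimulated wild type, 7.04 to 7.28 in unstimulated transgenic, 6.01 to 6.29 in stimulated wild type and 6.35 to 6.42 in stimulated transgenic arrays. Its genotype differences were 0.03 before and 0.23 after stimulation, and those of 1419848_x_at were −0.03 and 0.33 (limma adjusted p = 0.30 for the last), none called. With stimulation they fell in wild type cells by 0.44 (adjusted p = 0.0195) and 0.49 (adjusted p = 0.00482), while the changes in transgenic cells were −0.23 and −0.11 (adjusted p = 0.201 and 0.479). The fall at 1449640_at was lost without wild type day 0 replicate 1 (−0.28) or replicate 3 (−0.41), without wild type day 2 replicate 2 (−0.36), and in a fit of the 6 wild type arrays alone (adjusted p = 0.0624). On the deposited scale both probe sets fell in transgenic cells as well, by 0.81 and 0.71. Which of the 3 probe sets reads the main Tlr7 transcript was not tested.

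Tlr3, the receptor for double-stranded RNA, was not called by genotype. At 1422782_s_at it read 6.40, 6.08 and 5.88 in unstimulated wild type, 6.44, 6.28 and 6.35 in unstimulated transgenic, 5.02, 4.91 and 5.06 in stimulated wild type and 5.23, 5.31 and 4.76 in stimulated transgenic arrays. On the deposited scale every stimulated array lay below every unstimulated one, while the genotypes overlapped within each state. On quantile-normalized values the states overlapped, at 5.551 in unstimulated wild type replicate 3 and 5.606 in stimulated transgenic replicate 2. Tlr3 fell there by 0.51 ± 0.15 in wild type (limma adjusted p = 0.0121) and 0.63 ± 0.15 in transgenic cells (adjusted p = 0.00362), against 1.12 and 1.26 on the deposited scale. The dimmer Tlr3 probe set 1422781_at fell by 0.53 ± 0.10 (adjusted p = 0.000739) and 0.42 ± 0.10 (adjusted p = 0.00395), the latter not called with median centring (−0.22, adjusted p = 0.0668).

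Tlr9, the receptor for unmethylated CpG DNA, read 6.70, 7.28 and 7.09 in unstimulated wild type, 7.01, 6.98 and 7.18 in unstimulated transgenic, 6.71, 6.63 and 6.69 in stimulated wild type and 6.68, 6.90 and 6.97 in stimulated transgenic arrays. Genotype differences were 0.03 ± 0.13 (95% interval −0.246 to 0.313) and 0.17 ± 0.13 (interval −0.106 to 0.453), neither called by limma. With stimulation Tlr9 changed by 0.20 ± 0.13 in wild type (adjusted p = 0.211) and rose by 0.36 ± 0.13 in transgenic cells (adjusted p = 0.0279) on quantile-normalized values, but both signs turned on the deposited scale, to −0.35 (adjusted p = 0.0253) and −0.21 (adjusted p = 0.155). The transgenic call was lost without transgenic day 0 replicate 1 (0.34) or 2 (0.32) or transgenic day 2 replicate 2 (0.34) or 3 (0.30). No direction of Tlr9 with stimulation held under the 3 scalings.

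Counted over the members on quantile-normalized values, stimulation raised 4 probe sets and lowered 9 in wild type cells, and raised 5 and lowered 7 in transgenic cells. Over all probe sets, 30.7% rose and 26.1% fell in wild type and 30.1% rose and 25.1% fell in transgenic cells. The members' medians were −0.463 and −0.169. Split by scaling, 3 member probe sets rose and 10 fell in each genotype on the deposited scale, and with median centring 6 rose and 7 fell in wild type and 7 rose and 5 fell in transgenic cells. By gene, 3 members rose and 6 fell in wild type and 4 rose and 6 fell in transgenic cells, beside 36.0% and 24.0% of all genes in wild type and 35.2% and 23.3% in transgenic cells. Under the 3 scalings Tlr1, Tlr2, Tlr6 and Tlr3 1422782_s_at fell in both genotypes, and Tlr4 1418162_at, Ly96 and Tlr7 1422010_at rose in both.

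**Figure D3:**
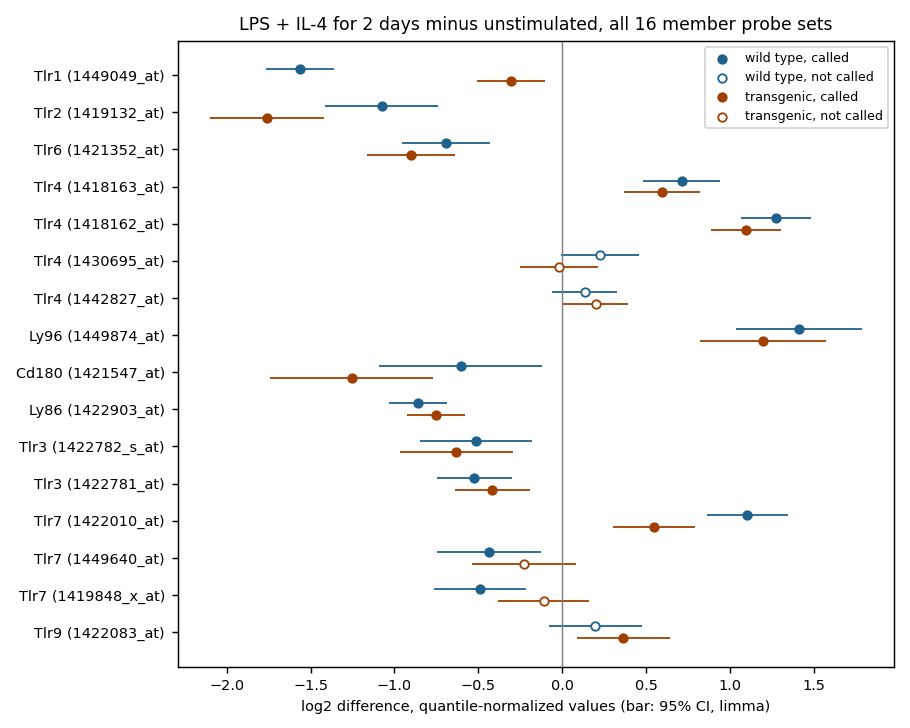
Change with 2 days of LPS and IL-4 (x axis, log2 difference of quantile-normalized values) for the 16 member probe sets (y axis) in wild type (blue) and transgenic cells (brown); bars are 95% confidence intervals from limma with 3 arrays per group, and filled symbols passed an adjusted p of 0.05. Tlr1 is the probe set with the widest gap between genotypes (−1.56 against −0.31). Ly96, Tlr4 1418163_at and 1418162_at, and Tlr7 1422010_at lie to the right in both genotypes. The positions of Ly86, Tlr9 and the dim Tlr4 probe sets 1430695_at and 1442827_at change side of zero under other scalings.

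Other genes of the pathway were taken from a list of 39 receptors, LPS handling proteins, chaperones, adaptors, kinases, ubiquitin enzymes, inhibitors and transcription factors, of which 35 had a probe set of their own. In unstimulated cells 7 of the 35 were higher and 2 lower in transgenic cells, against 5.45% and 4.90% of all genes, with a median of 0.123, beside 0.013 over all genes. The share of lower genes is thus near that over all genes. Cd14, which hands LPS to TLR4, read 6.70, 6.72 and 6.27 in wild type and 8.12, 8.79 and 8.52 in transgenic arrays, a difference of 1.91 ± 0.20 (limma adjusted p = 7.39e-05). Tlr13, an endosomal receptor for bacterial ribosomal RNA, read 6.26, 6.44 and 6.07 against 7.29, 7.62 and 7.60, a difference of 1.25 ± 0.13 (adjusted p = 7.50e-05). Neither gene's arrays overlapped. Myd88, the main adaptor, was higher by 0.43 (adjusted p = 0.00404), the kinase Ikbke by 0.51 (adjusted p = 0.0164), the adaptor Pik3ap1 by 0.40 (adjusted p = 0.0176), Irf5 by 0.33 (adjusted p = 0.0374) and Unc93b1, which carries endosomal receptors to their compartment, by 0.28 (adjusted p = 0.0425). Tab2 (−0.51, adjusted p = 0.0234) and the ubiquitin ligase Traf6 (−0.42, adjusted p = 0.0111) were lower. Tlr5 (0.16), Tlr8 (0.36), Lbp (0.12) and Irak3 (0.10) did not pass. The count of 9 fell to 4 in a fit of the 6 unstimulated arrays and without wild type day 0 replicate 2 or transgenic day 0 replicate 1, and to 5 without transgenic day 0 replicate 3. Cd14, Tlr13 and Myd88 were called in all of these fits. Irf5 and Unc93b1 were not called with median centring (adjusted p = 0.0583 and 0.0822), in the 6-array fit (adjusted p = 0.104 and 0.0946) or without any of 8 single arrays each, among them all 3 transgenic day 0 arrays (adjusted p up to 0.125 and 0.141). The 6-array fit also lost Ikbke, Pik3ap1, Tab2 and Traf6, and Tab2 was lost without wild type day 0 replicate 1 or 2 or any transgenic day 0 array (adjusted p up to 0.0844). Ikbke was lost without wild type day 0 replicate 2 or transgenic day 0 replicate 1 or 3, and Pik3ap1 without wild type day 0 replicate 2 or transgenic day 0 replicate 1.

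In stimulated cells 5 of the 35 pathway genes were higher in transgenic cells and none lower by limma, against 2.34% of all genes called in either direction, with a median of 0 and 11 at an unadjusted p under 0.05 in either direction. They were Cd14 (1.11, limma adjusted p = 0.0112), the inhibitor Trim30a (0.96, adjusted p = 0.0341), Pik3ap1 (0.86, adjusted p = 0.000229), Casp4 (0.43, adjusted p = 0.024), which senses LPS in the cytosol, and the inhibitory kinase Irak3 (0.37, adjusted p = 0.0296). Pik3ap1 read 10.02, 10.04 and 9.97 in wild type and 10.92, 10.96 and 10.74 in transgenic arrays. Myd88 (0.13), Unc93b1 (0.03), Tlr13 (0.12), Tlr5 (−0.06), Tlr8 (0.02) and Lbp (0.17) were not called. The count was 2 without any of wild type day 2 replicates 1, 2 and 3 or transgenic day 2 replicate 2, and 3 without transgenic day 2 replicate 1 or 3. Pik3ap1 was called in all fits. Cd14 was no longer called without wild type day 2 replicate 3 (1.07, adjusted p = 0.0577). Trim30a was not called with a trended robust prior (adjusted p = 0.0806), in a fit of the 6 stimulated arrays (adjusted p = 0.0875), or without wild type day 2 replicate 1 or 2, any transgenic day 2 array or transgenic day 0 replicate 3 (adjusted p up to 0.156). Casp4 was lost without any wild type day 2 array or transgenic day 2 replicate 2 or 3 (adjusted p up to 0.102). Irak3 was lost with the trended robust prior (adjusted p = 0.051) and without any wild type day 2 array or transgenic day 2 replicate 1 or 2 (adjusted p up to 0.136).

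With stimulation, 9 of the 35 rose and 19 fell in wild type cells (median −0.261), and 10 rose and 19 fell in transgenic cells (median −0.294), beside medians of 0.080 and 0.083 over all genes and shares of 36.0% rising and 24.0% falling in wild type and 35.2% and 23.3% in transgenic cells. The split depended on scaling: on the deposited scale 7 rose and 25 fell in wild type and 6 rose and 23 fell in transgenic cells, and with median centring 15 rose and 10 fell, and 15 rose and 7 fell. Myd88 rose by 1.01 in wild type (limma adjusted p = 1.17e-07) and 0.62 in transgenic cells (adjusted p = 1.39e-05). Ikbke rose by 1.02 and 0.50, Ube2n by 0.84 and 1.02, Ticam1 by 0.83 and 0.51, Sarm1 by 0.70 and 0.84 and Irf7 by 0.68 and 0.77. On the deposited scale the rises of Sarm1 in both genotypes and of Ticam1 (0.10) and Ikbke (0.067, adjusted p = 0.606) in transgenic cells were not called. Of 4 chaperone and trafficking genes, 1 rose and 2 fell in wild type, and 1 rose and 3 fell in transgenic cells. Among them Slc15a4 fell by 2.06 and 2.12 and Unc93b1 by 1.34 and 1.59. Tnfaip3, an inhibitor of NF-kB signalling, fell by 1.77 in wild type and fell by 2.01 in transgenic cells, Irak2 by 1.67 and 1.44, Irak3 by 0.60 and 0.39 and Tab2 by 1.15 and 0.59. The fall of Irak3 in transgenic cells was not called with median centring (−0.06), and that of Tab2 in transgenic cells turned to 0.21 there (adjusted p = 0.176). Tlr13 fell by 1.72 in wild type and by 2.90 in transgenic cells, and its interaction of −1.18 (adjusted p = 0.011) was the only one called among the 35, against 2.30% of all genes. Cd14 changed by −0.43 in wild type (limma adjusted p = 0.0949) and fell by 1.47 in transgenic cells (adjusted p = 4.36e-05). The wild type change was called with the replicate block (adjusted p = 0.0462) and in a fit of the 6 wild type arrays (adjusted p = 0.0322). It was also called without wild type day 0 replicate 3 (−0.59, adjusted p = 0.0344) and on the deposited scale (−1.03, adjusted p = 0.00039). The Cd14 interaction of −1.05 was not called (adjusted p = 0.105). Without transgenic day 0 replicate 1 or transgenic day 2 replicate 2 it was called (adjusted p = 0.0469 and 0.0494). Trim30a rose in transgenic cells by 0.57 (adjusted p = 0.0337), a call lost with a trended robust prior (adjusted p = 0.0557) and without transgenic day 0 replicate 2 or 3 or transgenic day 2 replicate 1 or 2 (adjusted p up to 0.131). In wild type cells Trim30a changed by 0.28 (limma adjusted p = 0.268). That change was called on the deposited scale (0.55, adjusted p = 0.0278) and with median centring (1.16, adjusted p = 0.000206). It was also called without wild type day 2 replicate 1 (0.57, adjusted p = 0.00868). On quantile-normalized values Tlr5 rose in wild type by 0.35 (adjusted p = 0.00697) and changed by 0.14 in transgenic cells, but on the deposited scale both signs were negative. Lbp fell in wild type by 0.23 (adjusted p = 0.032), a call lost with median centring (−0.19, adjusted p = 0.0659), in a fit of the 6 wild type arrays (adjusted p = 0.0502), and without wild type day 0 replicate 1 or 3 or wild type day 2 replicate 2 or 3 (adjusted p up to 0.0927). In transgenic cells Lbp changed by −0.15 (limma adjusted p = 0.136). That change was called on the deposited scale (−0.77, adjusted p = 3.6e-06) and without transgenic day 0 replicate 1 (−0.24, adjusted p = 0.0301). The Lbp interaction of 0.07 was not called (adjusted p = 0.84). Tlr8, at 0.07 and −0.24, was not called on quantile-normalized values. On the deposited scale its changes were −0.54 in wild type (limma adjusted p = 0.00141) and −0.88 in transgenic cells (adjusted p = 3.05e-05). Without transgenic day 2 replicate 3 the transgenic change was called on quantile-normalized values too (−0.38, adjusted p = 0.0139).

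**Figure D4:**
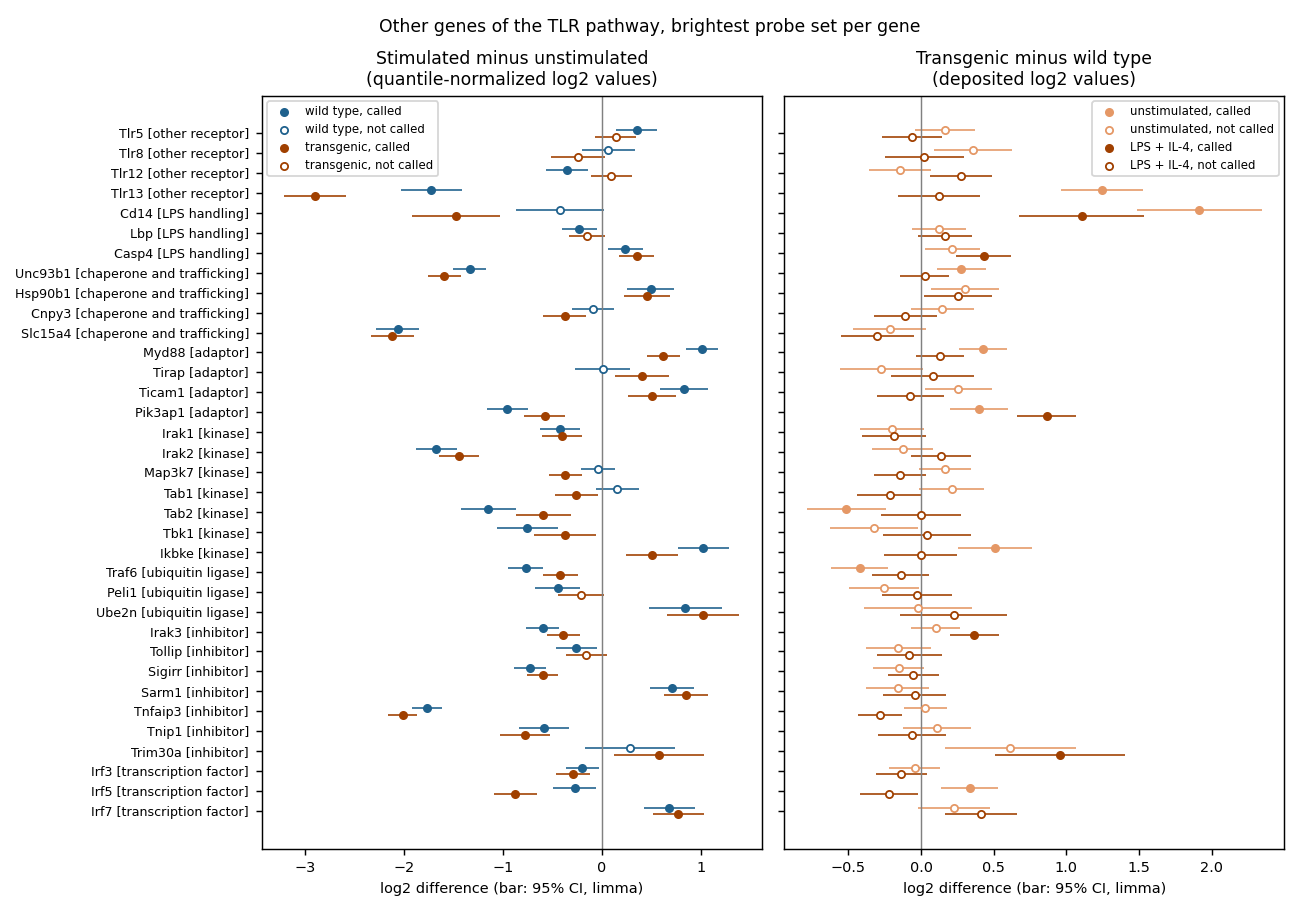
Log2 differences of the 35 other pathway genes (y axis, with their role in brackets) at their brightest probe set: stimulation in each genotype on quantile-normalized values in the left panel, transgenic minus wild type in each state on deposited values in the right panel; bars are 95% confidence intervals from limma with 3 arrays per group and filled symbols passed an adjusted p of 0.05. Cd14 and Tlr13 stand farthest right by genotype in unstimulated cells (1.91 and 1.25), and Tlr13 farthest left with stimulation in transgenic cells (−2.90).

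Tlr2, Tlr6, Tlr7, Cd14 and Tlr13 are also made by granulocytes, macrophages or dendritic cells, so marker lists of other cells are given beside them. In unstimulated transgenic cells 12 of 13 granulocyte markers were higher, against 5.45% of all genes, with a mean log2 level over the list of 8.85 to 9.31 against 6.18 to 6.37 in wild type. Likewise 12 of 14 macrophage and monocyte markers were higher, at 7.59 to 7.80 against 6.54 to 6.71. In stimulated cells the granulocyte list stood at 5.22 to 5.39 against 4.89 to 4.94, with 3 of 13 called, and the macrophage list at 5.67 to 5.91 against 5.33 to 5.47, with 2 of 14 called. The largest unstimulated differences were those of S100a9 (4.89), S100a8 (4.62) and Ngp (4.03) among granulocyte genes and of the complement genes C1qa (2.58), C1qb (2.49) and C1qc (1.78) among macrophage genes. No marker can read 0 on this scale; Camp, Ltf, Lcn2, Cxcr2 and Mmp8 lay below the array median in unstimulated wild type cells, and no granulocyte marker did in unstimulated transgenic cells. Of 10 dendritic cell markers 1 was higher in unstimulated transgenic cells, of 8 T and NK cell markers 1, of 5 erythroid markers 4, of 8 marginal zone B cell markers 6 and of 7 plasma cell genes 5. Of the 8 B cell markers 1 was lower, and the list stood at 11.53 to 11.60 in transgenic against 11.48 to 11.71 in wild type cells. B cell transcripts were thus present in both genotypes, but this does not check the stated purity. After stimulation 3 of 8 marginal zone markers and 4 of 7 plasma cell genes stood higher in transgenic cells. Of all genes, 2.34% were called between the stimulated genotypes in either direction. That share also stands beside the granulocyte and macrophage counts of stimulated cells. None of the dendritic, T and NK, erythroid and B cell lists was called there by limma, with 1, 1, 0 and 2 at an unadjusted p under 0.05. With stimulation, on quantile-normalized values, 8 of 13 granulocyte markers fell in wild type and 13 in transgenic cells, and none rose. Of 14 macrophage and monocyte markers, 2 rose and 8 fell in wild type, and 2 rose and 12 fell in transgenic cells. Of the 8 B cell markers 7 fell in each genotype. Over all genes, 24.0% fell in wild type and 23.3% in transgenic cells. The part of the listed cell types in the differences of Tlr2, Tlr6, Tlr7, Cd14 and Tlr13 was not tested.

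**Figure D5:**
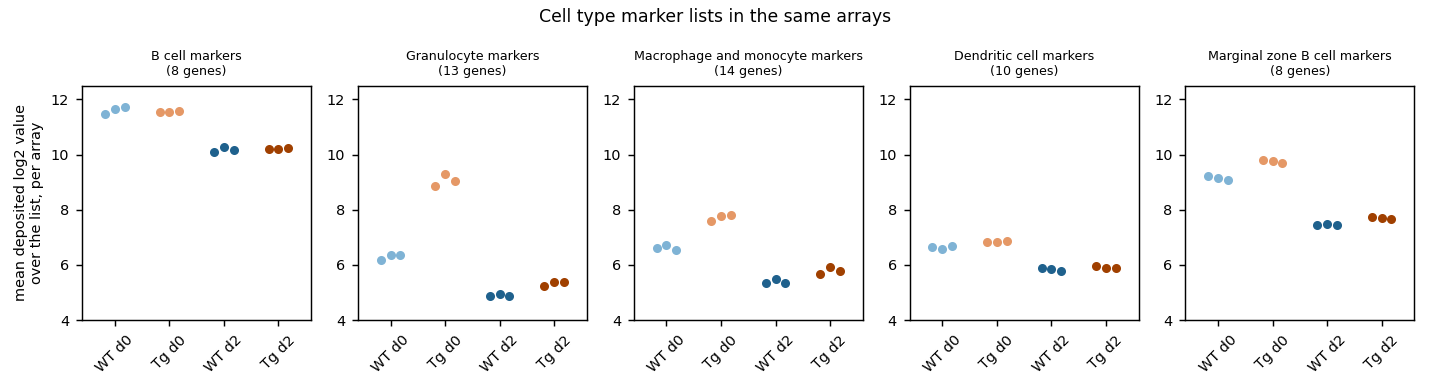
Mean deposited log2 level over 5 lists of cell type markers (y axis) on each array of the 4 groups (x axis), 3 points per group, with d0 unstimulated and d2 after 2 days of LPS and IL-4. The granulocyte and macrophage lists stand higher in unstimulated transgenic arrays than in unstimulated wild type arrays (8.85 to 9.31 against 6.18 to 6.37 for granulocytes), while the B cell list overlaps between genotypes.

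The pattern of each member over the 12 arrays was set against 18192 other genes by the root mean square distance between profiles centred on their own means, on quantile-normalized values. Closest to Tlr1 were Ifi213 (0.383), H2-K1 (0.448) and A630001G21Rik (0.466), beside a spread of Tlr1 itself of 1.275. Divided by the member's own spread, the distance of the nearest gene was 0.30 for Tlr1, 0.428 for Tlr9 and 0.156 for Ly86 to 0.265 for Tlr6 among the rest. Closest to Tlr2, with a spread of 0.812, were Mcemp1 (0.153), Csf2ra (0.178) and Ctsb (0.181). For Tlr6 they were Uvrag and Galnt11 (0.122 each) and Tns3 (0.129), for Tlr4 Stambp, Ggcx and Dtd1 (0.076 to 0.088), and for Ly96 Sowahc, Plscr1 and Pcbp4 (0.136 to 0.171). For Cd180 they were Prcp, Gabarap and Grina (0.128 to 0.193), for Ly86 Atp6v0e, Spint2 and Gsdmd (0.064 to 0.071), and for Tlr3 Egr2, Crot and S1pr3 (0.082 to 0.116). For Tlr7 they were Smim8, Pnp and Dnajc10 (0.125 to 0.135), and for Tlr9 Celsr2, Ccn5 and Hrh4 (0.089 to 0.093). Within the members the closest pair was Tlr6 and Tlr3 (0.217), and the farthest was Tlr1 and Ly96 (1.782). Tlr1 and its partner Tlr2 were 1.555 apart. These distances describe 12 arrays in 4 groups and carry no test.

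Genes beside the members in the RefSeq order were read at their brightest probe sets. On the far side of Tlr1 lies Klf3, a transcriptional repressor, which differed by −0.21 in unstimulated cells (limma adjusted p = 0.252) and was lower by genotype in stimulated cells (−1.21, adjusted p = 2.88e-05) at that probe set. The 6 other Klf3 probe sets ran from −0.37 to 0.05 in stimulated cells (adjusted p 0.373 to 0.984) and from −0.20 to 0.48 in unstimulated cells, none called. Beyond Tlr6 lies Fam114a1, at 0.01 and 0.04, not called. Beside the other members, F13a1 next to Ly86 was higher in unstimulated transgenic cells by 1.46 (adjusted p = 0.000641) and Rreb1 on its other side was lower in both states (−0.46 and −0.45, adjusted p = 0.0142 and 0.0458), where none of its 4 other probe sets was called. Alas1 next to Tlr9 was higher by 0.54 (adjusted p = 0.00291; 0.19 and not called at its other probe set) and Tmem70 next to Ly96 by 0.34 (adjusted p = 0.00926) in unstimulated cells.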

How the data were processed

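RNA of splenic B cells was measured on 12 single-channel arrays, 3 in each of 4 groups. The deposited values are log2 probe set levels that the authors computed by RMA (affy package), as stated without versions in the submitters' processing notes. Whether all arrays were normalized in 1 run, and the genome build, are not given in the sources used here. The table holds 45101 probe sets, and 64 of them, array controls, were not used. The array annotation gives 1 symbol for 34945 of the rest, several for 932 and none for 9160. A gene with several probe sets of its own was read at the brightest, by mean over all arrays.

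The model, fitted in limma 3.58.1 (R 4.3.3), had a coefficient for each group, no block and a constant prior. Genotype contrasts used the deposited values; stimulation and interaction contrasts used those values quantile-normalized over the 12 arrays. All tests are 2-sided. The procedure was tested on simulated data. The number of arrays limits the precision. Alternatives were the other scalings, a filter on dim probe sets, a trended robust prior, only the arrays compared, any called probe set per gene, the replicate number as a block, and each array left out.

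The members, the lists and the tests were chosen with earlier results of these data known. All members are named with every probe set. Of the pathway list, up to 6 called genes per contrast and direction with the largest difference are named, and Cd14, Lbp, Myd88, Unc93b1, Irak3, Tlr5, Tlr8 and Tlr13 always; a gene named for stimulation may be given in both genotypes. Up to 3 genes of a marker list are named by size of difference. Deviations from the group means of same-numbered arrays correlated at 0.175 to 0.318 between the wild type states. Between the stimulated genotypes they correlated at 0.101 to 0.330. Arrays of different number correlated at −0.228 to 0.098 and −0.260 to 0.057 in these comparisons. Same-numbered arrays correlated at 0.070 to 0.297 between the unstimulated genotypes and −0.160 to 0.115 between the transgenic states. The labels name no pairing, so whether the numbers mark pairs is not settled. Promoter sequences are from RefSeq, GRCm38.p6.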

Additional observations from a re-analysis of the deposited data

Results flagged for a closer look

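The change of Tlr1 with stimulation differed between genotypes. It fell by 1.56 in wild type and by 0.31 in transgenic cells, and the interaction was 1.2554 on the log2 scale (limma adjusted p = 0.000465). Its interaction ran from 1.1535 to 1.3167 with single arrays left out.

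The change of Tlr13 also differed between genotypes, in the other direction. It fell by 1.72 in wild type and by 2.90 in transgenic cells, with an interaction of −1.1768 (limma adjusted p = 0.011). Stimulated arrays read 3.97, 4.05 and 4.00 in wild type and 4.07, 4.39 and 3.93 in transgenic cells, below the array medians of 5.36 to 5.41. The granulocyte and macrophage marker lists were also higher in unstimulated transgenic cells. For the interaction, 11 of 13 granulocyte markers were lower, and of 14 macrophage and monocyte markers 5 were lower and 1 higher. Of all genes, 2.30% were called for it in either direction. The part of these cells in the Tlr13 interaction was not tested.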

How the results depend on the processing

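Counts of called member probe sets stayed within 1.5 times under every alternative run. The count of pathway genes called between unstimulated genotypes was 9, and 4 in a fit of the 6 arrays compared; leaving out single arrays gave 4 to 11. Between stimulated genotypes it was 5, with 2 to 6. For the interaction it was 1, with 3 under the replicate block, 2 with a trended robust prior and 1 to 4 with single arrays left out. The Kcnip3 difference in unstimulated cells at 1418544_at, 0.2333, ran from 0.1467 to 0.3867 with single arrays left out.

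Median centring turned the stimulation change of Ly86 to 0.0267 in wild type and 0.1033 in transgenic cells, and those of Tlr4 1430695_at and Tab2 in transgenic cells to 0.28 and 0.2133. On the deposited scale the stimulation change of Tlr9 turned to −0.3467 and −0.2067, that of Tlr5 to −0.2267 and −0.4533, and that of Tlr8 in wild type cells to −0.5433. The cause of these turns was not tested.

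The replicate block gave an adjusted p of 0.0365 for Ly96 and 0.0569 for Unc93b1 between the unstimulated genotypes, and 0.0495 for the Cd14 and 0.0389 for the Irf5 interaction. Between the unstimulated genotypes 1 of the 3 same-numbered pairs correlated above 0.1 (0.297, against 0.078 and 0.070), although replicate 3 was the array with low Eif2s3y in both. Whether the numbers mark pairs is not settled there either. Beside these, the Cd14 call in the report and the interaction count, it changed no other call. The filter on dim probe sets changed no call of the member probe sets it kept. Among pathway genes it added Tnfaip3 between stimulated genotypes (−0.2833, adjusted p = 0.0496), for 6 called of 31, and Irf5 for the interaction (adjusted p = 0.0495), both named after their values were seen. The filter removed Tlr13 as dim, so its interaction was not tested there, and Irf5 was the 1 gene called of 31. With 3 arrays a group, the genotype intervals of Tlr9 and of Tlr3 1422782_s_at include zero and differences in either direction. That of Tlr3 1422781_at in stimulated cells ran from 0.0167 to 0.4366, but its adjusted p was 0.387.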

Other observations

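The region around Tlr1 was looked at after its values were seen. Within 2 Mb on each side, 62 probe sets of 25 genes were tested. Leaving out Tlr1 itself, 3 were higher and 6 lower in unstimulated transgenic cells, the lowest at −0.7567. Tlr6 is among the 3 higher, and over all probe sets 4.47% were higher and 4.98% lower. Between the stimulated genotypes 2 were called, both lower, against 1.86% of all probe sets in either direction. These were Klf3 at 1 of its 7 probe sets, with −1.21, and the ubiquitin hydrolase gene Uchl1 at −0.66 (limma adjusted p = 0.00048).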
